A study of Homo sapiens with 9 samples.

Results

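The HOX genes of the HOXA, HOXB, HOXC and HOXD clusters were compared between 3 related human breast epithelial cell lines by RNA sequencing. Members were all genes of the deposited table whose symbol is HOX, a cluster letter from A to D and a number, with no use of their measured values, which gave 39 of 62666 genes: 11 in HOXA, 10 in HOXB, 9 in HOXC and 9 in HOXD. The series asks how gene expression changes as breast cancer progresses, and each line was measured in 3 libraries of polyadenylated RNA. MCF10A, a mammary epithelial line that forms no tumours, was grown here in 5% horse serum. MCF10AT1 is a premalignant line derived from it with an activated HRAS gene, grown in 2.5% horse serum. MCF10Ca1a belongs to the same lineage, forms tumours and was grown in 5% horse serum. The medium of all 3 lines was DMEM/F12 with insulin, epidermal growth factor, hydrocortisone and cholera toxin, per the labels. Serum and line therefore differ together in each comparison that includes MCF10AT1, and each stage is a single line.

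HOX genes encode homeodomain transcription factors that give cells their position along the body axis. Within a cluster the genes lie in the same order as their paralog groups, all transcribed from the same strand, and genes of 1 group in different clusters descend from a common ancestor. In development the genes of the low-numbered (anterior) groups are switched on earlier and nearer the head than those of the high-numbered (posterior) groups, Polycomb and trithorax complexes keep the genes silent or active through later divisions, and several members act in the growth of the mammary gland. Groups 1 to 3 are called anterior here, groups 4 to 8 central and groups 9 to 13 posterior.

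Depth ranged from 62.9 to 69.5 M (mega) estimated counts over the MCF10A and MCF10AT1 libraries and from 32.9 to 35.2 M over those of MCF10Ca1a, so low genes were measured less precisely in MCF10Ca1a. HRAS, read as a check of the labels, had 39.1 to 43.0 CPM (counts scaled to library size) in MCF10A, 94.3 to 99.6 CPM in MCF10AT1 and 141 to 149 CPM in MCF10Ca1a. All 8 mammary epithelial markers were detected in each line, and the leukocyte markers PTPRC, CD3E and LYZ, the fibroblast markers COL1A2 and COL3A1 and the endothelial markers CDH5 and VWF were at 3 counts or fewer in all 9 libraries. Other markers of these cell types were present. The summed level of the 7 fibroblast markers was 6.43 to 7.23 TPM (transcript abundance scaled for length and depth) in MCF10A, 27.7 to 31.5 in MCF10AT1 and 1.94 to 2.33 in MCF10Ca1a. DCN (decorin) took 3.61, 27.9 and 0.329 TPM of these sums on average. The 6 leukocyte markers summed to 15.9 to 22.4 TPM, 6.04 to 6.64 and 30.4 to 33.4 in the same order, all but a small part from CD68, a lysosomal protein gene, and CD14. CD68 had 869 to 1089 counts in MCF10A, 223 to 286 in MCF10AT1 and 1366 to 1572 in MCF10Ca1a, while CD14 had 600 to 611, 269 to 304 and 4 to 12. The 5 endothelial markers summed to 0.757 to 0.988 TPM, 0.934 to 1.36 and 15.7 to 20.8, with PECAM1 at 181 to 232, 205 to 275 and 1415 to 1751 counts. The part of these markers in the HOX values was not tested. The labels do not say whether the 3 libraries of a line came from separate cultures, so p-values measure only the spread between these libraries.

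The 4 clusters were used very unequally. In TPM, which can be compared between genes, the HOXA genes summed to 98.6, 85.4 and 86.4 in the MCF10A libraries, to 45.7, 46.0 and 45.1 in MCF10AT1 and to 56.2, 57.4 and 56.5 in MCF10Ca1a. The 3 lines did not overlap, and MCF10A was the highest. The HOXC genes summed to 36.4 ± 4.36 TPM (SD, n = 3) in MCF10A, 31.2 ± 1.54 in MCF10AT1 and 27.2 ± 0.802 in MCF10Ca1a. The HOXB genes summed to 8.83 ± 0.882 TPM (SD, n = 3), 9.72 ± 0.381 and 10.3 ± 0.321 in the same order, with overlap between neighbouring lines. In CPM the order differed. The HOXB sums were 11.2 ± 0.397, 14.2 ± 0.378 and 12.9 ± 0.468 CPM (SD, n = 3), highest in MCF10AT1 without overlap. Those of HOXC were 46.1 ± 2.00, 47.6 ± 1.15 and 37.1 ± 1.37 CPM, with no fall at the first step. HOXD was at or near 0: 8 of its 9 genes had 0 counts in all 9 libraries and HOXD12 reached 4 counts in 1 library. For HOXD3 and HOXD4 this is a 0 of their rows only, since 61.9% and 78.2% of their 31-base words also occur in transcripts of other GENCODE 29 genes, first in AC009336.2, whose counts were not analysed here. At these depths a count of 0 allows up to 3 counts in a library, and this limit covers counting error only. With detection taken as 10 counts or more in all 3 libraries of a line, 22 of the 39 members were detected in MCF10A, 20 in MCF10AT1 and 18 in MCF10Ca1a.

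**Figure D1:**
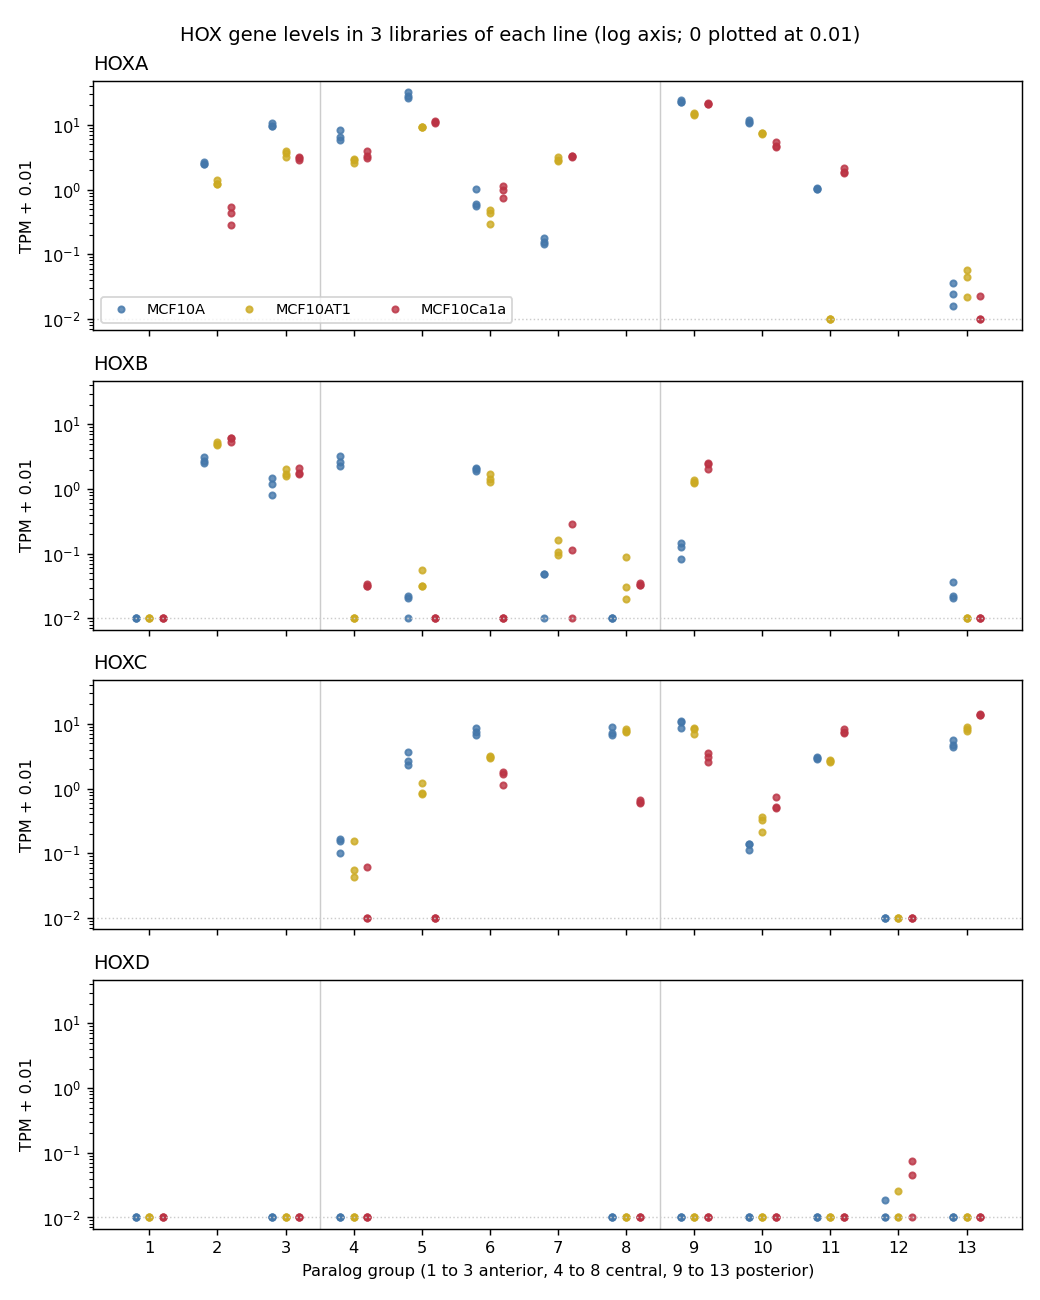
Level of 38 of the 39 HOX genes in TPM + 0.01 on a log axis (vertical) by paralog group (horizontal), 1 panel per cluster; points are libraries, coloured by line, and 0 is drawn at 0.01. HOXA genes reach the highest levels, HOXD points lie at or near 0, and HOXA11 is at 0 in MCF10AT1 only.

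Lines were compared with the quasi-likelihood test of edgeR, and p-values were adjusted by Benjamini-Hochberg over the 17910 genes that passed the filter on low counts, with a threshold of 0.05. Every single-gene p below is from this test unless another is named. Of the 39 members 23 were tested, 10 in HOXA, 5 in HOXB, 8 in HOXC and none in HOXD. Some of these passed the filter only through the line where they were high, so counts over the tested members describe them and support nothing.

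In MCF10AT1 against MCF10A, 7 HOX genes were higher and 11 lower, where 29.8% of all tested genes were higher and 31.8% lower (61.6% in either direction). At changes of at least 2-fold 4 members were higher and 7 lower, against 9.36% and 8.64%. By cluster the direction differed: in HOXA 1 gene rose and 8 fell, in HOXB 3 rose and 1 fell, and in HOXC 3 rose and 2 fell. The median log2 change was -0.79 over the HOXA genes tested, 0.94 in HOXB and -0.05 in HOXC, beside -0.00 over all genes. In MCF10Ca1a against MCF10AT1, 9 were higher and 8 lower, against 38.0% and 40.3% of all genes (78.4% in either direction), and at 2-fold 3 were higher and 6 lower, against 18.2% and 19.5%. By position, 6 of 8 posterior genes tested rose and 2 fell, while 2 of 10 central genes rose and 4 fell. One of those 2 central rises, HOXB4, rested on 1 count per library against 0, where both lines were under the floor of 3 counts. The median log2 change was 0.52 over the posterior genes and -0.78 over the central ones (-1.45 without HOXB4 and with genes at 0 set to their bounds), beside -0.04 over all genes. Over the whole span, in MCF10Ca1a against MCF10A, 8 were higher and 13 lower, against 39.0% and 41.9% of all genes (80.9% in either direction). There 8 of 10 central genes fell and 1 rose, and 5 of 8 posterior genes rose and 3 fell, with medians of -2.72 and 1.04 beside -0.05. At changes of at least 2-fold 5 members were higher and 12 lower in this comparison, where 21.2% and 21.7% of all genes were. The comparisons share lines, so their counts are not independent. On the TPM scale, with limma on log2(TPM + 1), 6 members were higher and 12 lower in MCF10AT1 against MCF10A and 9 higher and 7 lower in MCF10Ca1a against MCF10AT1. That scale moved the share of higher genes among all calls from 48.4% to 36.1% in the first comparison and from 48.5% to 62.4% in the second, and the median of all genes in the second to 0.11, or to 0.20 with a pseudocount of 0.1.

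**Figure D2:**
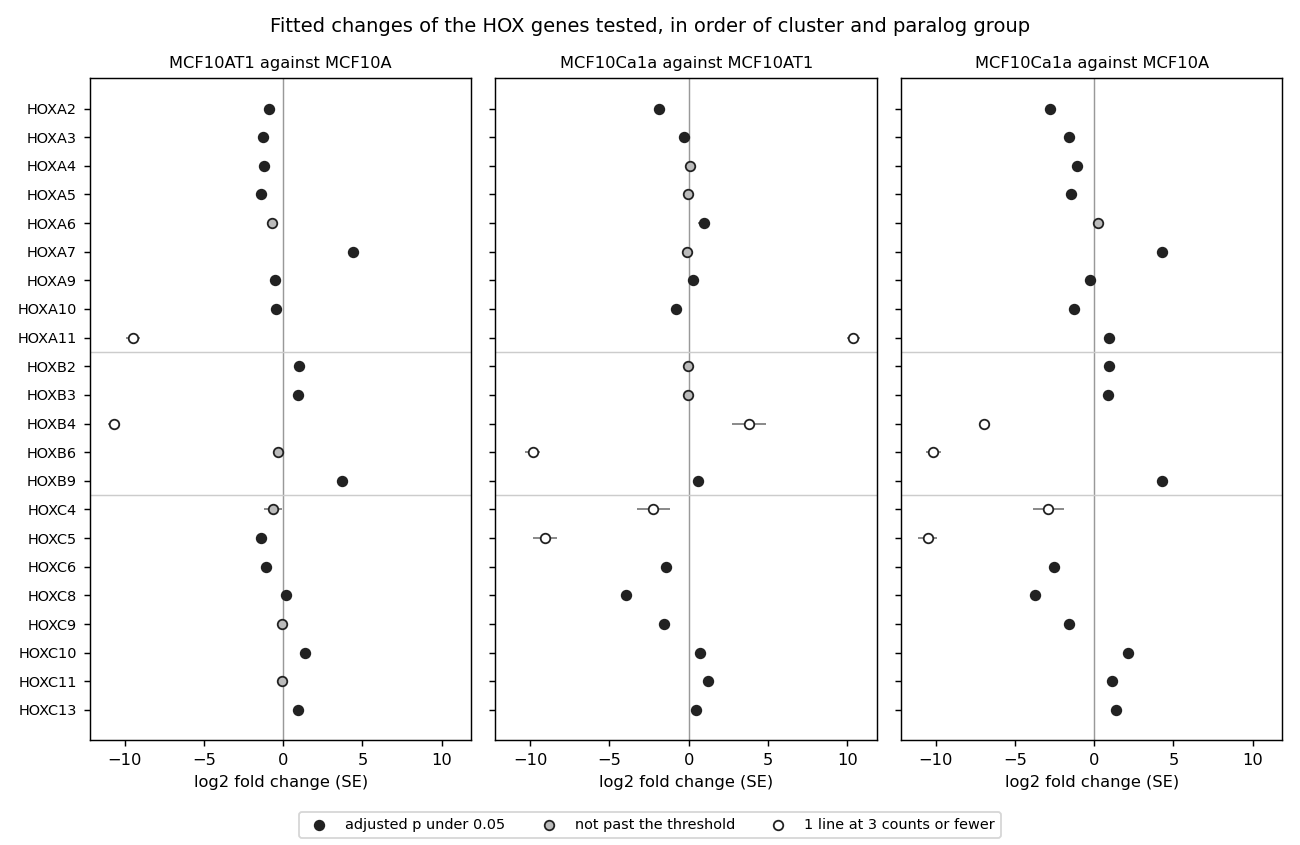
Fitted log2 fold change with its SE (horizontal) for 22 of the 23 HOX genes tested (vertical, by cluster and group), 1 panel per comparison; black points passed an adjusted p of 0.05, grey points did not, and open points have 1 or both lines at 3 counts or fewer, so that their position depends on the prior count. HOXA genes lie mostly left of 0 in MCF10AT1 against MCF10A, with HOXA7 to the right, and HOXC4 to HOXC9 lie left and HOXC10 to HOXC13 right of 0 in MCF10Ca1a against MCF10A.

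The share of HOX transcripts by position is a ratio within a library and does not depend on the scaling between libraries. Central genes held 45.4, 42.6 and 43.5% of all HOX TPM in the MCF10A libraries, 32.7, 33.7 and 34.2% in MCF10AT1 and 22.2, 22.7 and 22.1% in MCF10Ca1a. Posterior genes held 38.4, 41.3 and 39.9%, then 49.9, 48.5 and 48.9%, then 59.2, 58.4 and 59.4%. Neither share overlapped between any pair of lines, and anterior genes held between 16.1 and 18.9% in every library. The higher posterior share in MCF10AT1 was not a higher level. The summed posterior TPM was 53.9 ± 3.36 (SD, n = 3) in MCF10A, 42.5 ± 1.54 in MCF10AT1 and 55.6 ± 0.528 in MCF10Ca1a. The summed central TPM fell at both steps, from 59.4 ± 7.35 in MCF10A to 21.1 ± 0.304 in MCF10Ca1a. The shift in shares was not of 1 kind in the clusters. In HOXC the posterior share was 49.8 ± 1.84% (SD, n = 3) in MCF10A, 61.5 ± 1.89% in MCF10AT1 and 92.0 ± 1.03% in MCF10Ca1a. In HOXB the central share was 54.0 ± 3.82%, 16.8 ± 1.56% and 1.73 ± 1.44%, and the anterior share rose from 44.6 ± 4.23% to 69.9 ± 1.51% and 75.6 ± 4.04%. In HOXA the central share was 40.3 ± 1.45%, 33.8 ± 0.984% and 33 ± 0.962%, so the last step changed it by less than the spread between libraries.

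**Figure D3:**
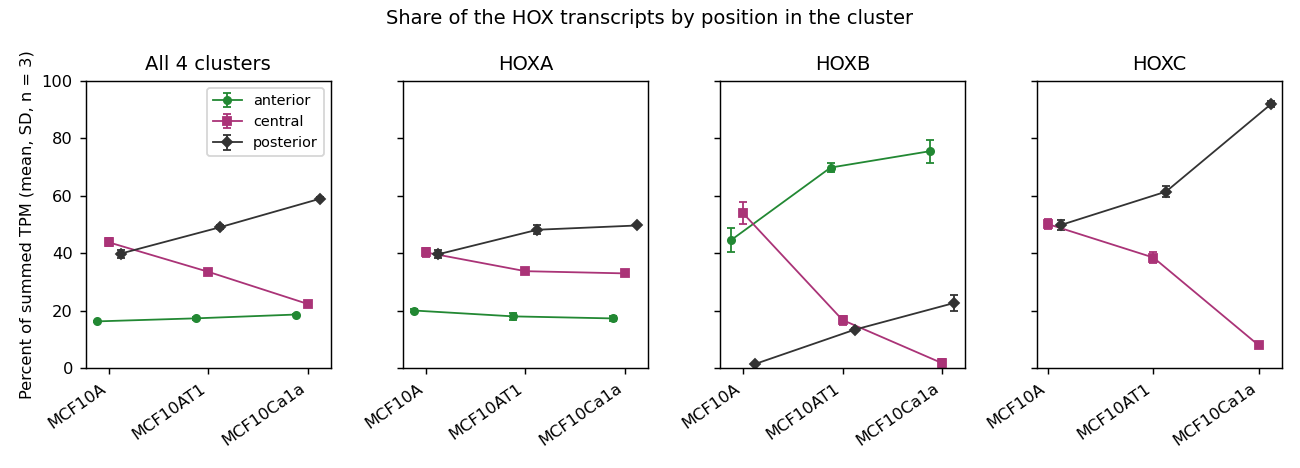
Percent of summed TPM (vertical, mean with SD over 3 libraries) held by anterior, central and posterior genes in each line (horizontal), over all 4 clusters and in HOXA, HOXB and HOXC. The posterior share of all HOX TPM goes from 39.9% in MCF10A to 49.1% in MCF10AT1 and 59.0% in MCF10Ca1a, and that of HOXC reaches 92.0%. A share is not a level: the summed posterior TPM was 53.9, 42.5 and 55.6 in these lines.

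HOXA lies on chromosome 7, minus strand, with HOXA13 at its posterior end (27193503-27200106) in GENCODE 29 on GRCh38, which gives all gene positions here. Its anterior genes pattern the hindbrain. HOXA2 fell at both steps, from 2.51, 2.97 and 2.91 CPM to 1.42, 1.69 and 1.48 and to 0.419, 0.268 and 0.536. No 2 lines overlapped, and its log2 change in MCF10Ca1a was -1.90 against MCF10AT1 (SE 0.21, adjusted p 1.82e-06) and -2.76 against MCF10A (SE 0.20, adjusted p 1.72e-08). HOXA3 had 13.5, 12.4 and 13 CPM in MCF10A, 5.43, 5.36 and 5.19 in MCF10AT1, against 4.30, 3.83 and 4.68 in MCF10Ca1a. Most of that fall lay in the first step, with a log2 change of -1.29 (SE 0.08, adjusted p 8.59e-09), beside -1.60 over the whole span (SE 0.09, adjusted p 5.49e-10).

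Of the central HOXA genes, HOXA5 is known as a regulator of p53 expression and of epithelial traits in breast cells. It was the highest HOX gene of MCF10A at 28.7 ± 2.93 TPM (SD, n = 3). In CPM it had 23.9, 22.0 and 23.8 in MCF10A, 8.67, 9.16 and 8.54 in MCF10AT1, with 8.66, 8.59 and 8.10 in MCF10Ca1a. In CPM its fall was complete at the first step, by -1.40 (SE 0.06, adjusted p 2.36e-10), and the later lines overlapped. Over the whole span its log2 change was -1.46 (SE 0.06, adjusted p 6.45e-11). In TPM it was higher in MCF10Ca1a, at 10.7, 11.4 and 11.2, than in MCF10AT1, at 9.20, 9.42 and 9.19, without overlap. HOXA4 followed the same course with 6.11, 5.41 and 5.32 CPM, then 2.26, 2.55 and 2.61, then 2.46, 3.09 and 2.45, and a first-step log2 change of -1.18 (SE 0.12, adjusted p 9.93e-07) and -1.07 over the whole span (SE 0.12, adjusted p 1.85e-06). Its counts were not whole in 4 libraries and 29.4% of its 31-base words also occur in transcripts of another gene, so its reads were partly shared out. HOXA6 was low throughout, at 0.624, 0.355 and 0.415 CPM, 0.210, 0.302 and 0.338, and 0.671, 0.535 and 0.423. Its fall of 0.71 on the log2 scale in MCF10AT1 missed the threshold (adjusted p 0.0521) and its change of 0.94 in MCF10Ca1a against MCF10AT1 passed it (adjusted p 0.0151).

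HOXA7 rose at the step where HOXA5 and HOXA9 fell. It had 0.234, 0.201 and 0.229 CPM (15, 13 and 16 counts) in MCF10A, 4.60, 5.09 and 4.40 in MCF10AT1, against 4.36, 4.40 and 4.26 in MCF10Ca1a. All 6 later libraries lay far above MCF10A, and MCF10AT1 and MCF10Ca1a overlapped. The log2 change was 4.39 in MCF10AT1 (SE 0.14, adjusted p 1.37e-11) and 4.28 in MCF10Ca1a (SE 0.15, adjusted p 5.18e-12), both against MCF10A. Only 0.672% of its 31-base words occur in transcripts of other genes. The start regions of HOXA7 and HOXA11 are shown because HOXA7 rose the most of this cluster in MCF10AT1 and HOXA11 was at 0 there, a choice made after their values were seen. Each is the 300-base window from 250 bases before to 50 after a transcription start in RefSeq on GRCh38.p14, read along the gene's strand, with CpG dinucleotides, the sites of DNA methylation, in capitals. The windows are chr7:27156626-27156925 (minus strand) for HOXA7 and chr7:27185183-27185482 (minus strand) for HOXA11.
HOXA7: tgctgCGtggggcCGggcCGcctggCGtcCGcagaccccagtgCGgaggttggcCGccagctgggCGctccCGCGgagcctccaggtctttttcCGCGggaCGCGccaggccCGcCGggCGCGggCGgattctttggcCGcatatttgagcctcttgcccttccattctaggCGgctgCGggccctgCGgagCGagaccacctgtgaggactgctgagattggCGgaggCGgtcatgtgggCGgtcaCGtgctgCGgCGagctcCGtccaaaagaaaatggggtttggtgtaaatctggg
HOXA11: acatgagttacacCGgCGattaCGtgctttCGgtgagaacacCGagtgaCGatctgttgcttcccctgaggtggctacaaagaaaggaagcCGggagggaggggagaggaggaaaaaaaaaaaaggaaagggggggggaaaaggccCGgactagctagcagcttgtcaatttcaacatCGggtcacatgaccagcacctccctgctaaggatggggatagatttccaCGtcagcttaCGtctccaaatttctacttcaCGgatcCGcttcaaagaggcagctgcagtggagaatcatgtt
The HOXA7 window holds 31 CpG and that of HOXA11 holds 13, beside a median of 22 in the 27 windows that 20 of the 39 members had in the table and of 14 in all 35116 windows. The letters CCAAT on either strand were in 18 of the 27 HOX windows and in 34.6% of all windows, AGGTCA on either strand in 0 of 27 and in 13.8%, and TGATNNAT on either strand in 3 of 27 and in 7.40%. A match describes the letters only. HOXA3 alone gives 7 of the 27 windows, and the window of HOXC4 is the same as that of HOXC5, so it is counted for both.

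The posterior HOXA genes act in limb, uterus and blood development. HOXA9 was the highest HOX gene of the later lines, at 14.6 ± 0.599 TPM (SD, n = 3) in MCF10AT1 and 21.3 ± 0.564 in MCF10Ca1a. It had 17.9, 17.8 and 18.3 CPM in MCF10A, 12.7, 12.4 and 13.3 in MCF10AT1, with 15.3, 15.4 and 15.4 in MCF10Ca1a, so that MCF10AT1 was lowest without overlap. HOXA10 fell at both steps, from 12.1, 12.4 and 12.8 CPM to 9.33, 8.78 and 9.28 and to 5.00, 4.76 and 5.70, with a log2 change of -1.27 over the whole span (SE 0.08, adjusted p 3.23e-09). HOXA11 had 95, 105 and 118 counts in MCF10A, 0 in each MCF10AT1 library and 119, 98 and 101 in MCF10Ca1a. In CPM that was at least 34.6-fold lower in MCF10AT1 than in MCF10A and at least 65.6-fold higher in MCF10Ca1a than in MCF10AT1, against a floor of 3 counts per library. MCF10Ca1a lay above MCF10A, by a log2 change of 0.92 (SE 0.15, adjusted p 1.09e-04). HOXA13 stayed at 8 counts or fewer in every library.

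**Figure D4:**
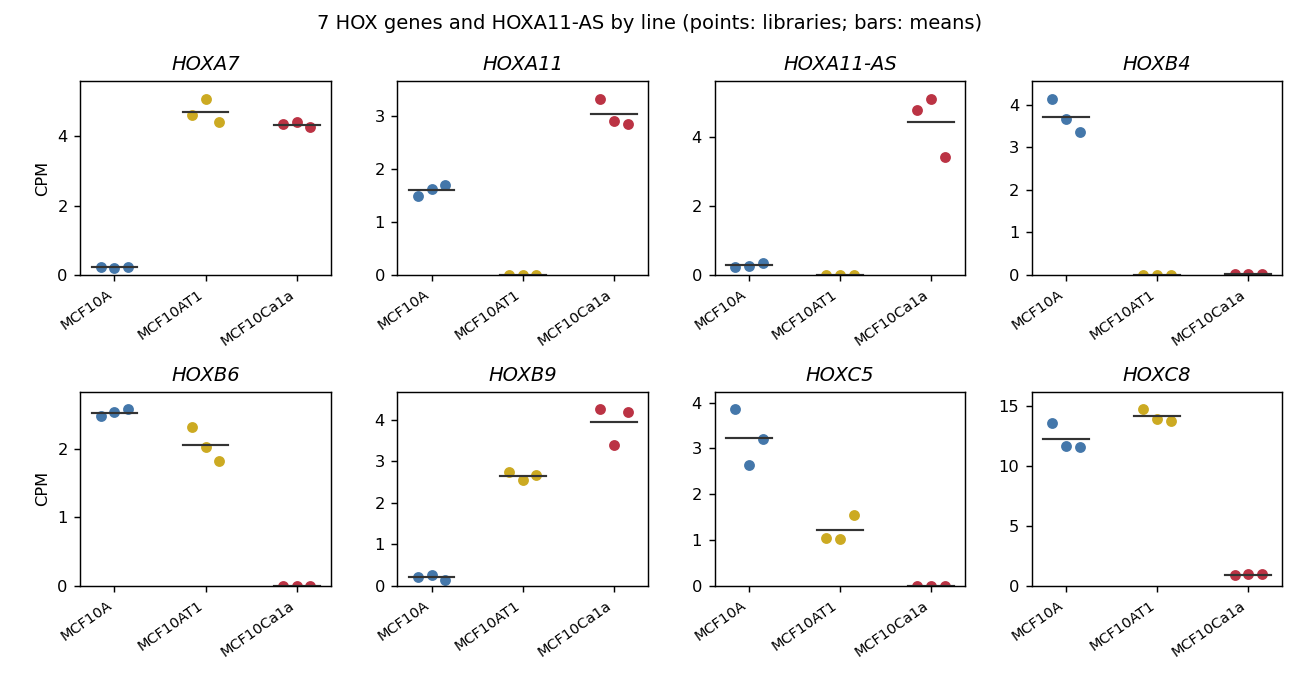
CPM per library (vertical, linear from 0; points are libraries, bars are means) in each line (horizontal) for 7 HOX genes and the antisense RNA HOXA11-AS, chosen after their values were seen. HOXA2, at 9 to 19 counts in MCF10Ca1a, and HOXC4 are not drawn. HOXA7 and HOXB9 are low in MCF10A, HOXA11 and HOXA11-AS are at 0 in MCF10AT1, and HOXB4 is at or near 0 in both later lines.

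HOXB lies on chromosome 17, minus strand, from HOXB1 (48528526-48531001) to HOXB13 (48724763-48729178). Its anterior pair rose together at the first step. HOXB2 had 2.50, 2.19 and 2.56 CPM in MCF10A, 4.63, 5.21 and 4.91 in MCF10AT1, against 4.97, 4.85 and 4.29 in MCF10Ca1a, a log2 change of 1.02 in MCF10AT1 (SE 0.11, adjusted p 1.70e-06). HOXB3 had 2.26, 2.22 and 2.42, then 4.47, 3.88 and 4.88, then 4.05, 4.76 and 3.84 CPM. For both genes MCF10A lay below all other libraries and the later lines overlapped.

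HOXB4 and HOXB6, the central HOXB genes detected in MCF10A, were at or near 0 in 1 or both later lines. HOXB4, known for its part in the self-renewal of blood stem cells, had 266, 237 and 235 counts in MCF10A, 0 in each MCF10AT1 library and 1 in each MCF10Ca1a library. It was at least 80.6-fold lower in MCF10AT1, and in MCF10Ca1a it was 129.9-fold lower than in MCF10A, with a 95% counting interval of 44.3 to 631. HOXB6 had 159, 164 and 180 counts in MCF10A, 155, 134 and 113 in MCF10AT1 and 0 in each MCF10Ca1a library. MCF10AT1 lay below MCF10A in CPM without passing the threshold (log2 change -0.30, adjusted p 0.0806), and MCF10Ca1a was at least 23.9-fold lower than MCF10AT1 and at least 29.5-fold lower than MCF10A. Of the 31-base words of HOXB4 14.6% and of HOXB6 16.2% occur in other genes' transcripts, HOXB3 among them.

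HOXB9, whose product has been linked to invasion in breast cancer, was the only posterior HOXB gene detected. It had 0.203, 0.247 and 0.143 CPM (13, 16 and 10 counts) in MCF10A, 2.73, 2.54 and 2.66 in MCF10AT1, with 4.25, 3.39 and 4.17 in MCF10Ca1a. The lines did not overlap, and the log2 change was 3.73 at the first step (SE 0.19, adjusted p 1.13e-09), 0.58 at the second (SE 0.14, adjusted p 0.00172) and 4.31 over the whole span (SE 0.19, adjusted p 6.11e-11). HOXB1 had 0 counts in all libraries, and HOXB5, HOXB7, HOXB8 and HOXB13 stayed at 4, 6, 6 and 4 counts or fewer.

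Group 9 was the one group with 3 genes detected in every line, and its members took 3 courses: HOXA9 was lowest in MCF10AT1, HOXB9 rose at both steps and HOXC9 fell in MCF10Ca1a. The homeoboxes of HOXB9 and HOXC9, which changed in opposite directions in MCF10Ca1a, are shown from GENCODE 29 transcripts on the coding strand. A homeobox is the stretch of 180 bases that encodes the DNA-binding homeodomain, and capitals mark the 32 positions where these 2 differ.
HOXB9: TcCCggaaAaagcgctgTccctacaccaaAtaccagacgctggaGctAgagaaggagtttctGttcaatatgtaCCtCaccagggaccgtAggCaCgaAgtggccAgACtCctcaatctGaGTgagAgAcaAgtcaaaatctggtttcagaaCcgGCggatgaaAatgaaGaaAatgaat
HOXC9: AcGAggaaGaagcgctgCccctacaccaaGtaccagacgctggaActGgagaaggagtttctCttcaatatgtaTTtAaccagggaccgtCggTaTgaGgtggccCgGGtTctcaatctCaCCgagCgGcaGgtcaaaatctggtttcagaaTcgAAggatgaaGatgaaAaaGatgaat
Over all members, homeoboxes of 1 paralog group had a median identity of 81.7% (42 pairs) and those of different groups 60.6% (699 pairs). Over whole transcripts 0.392% of the 31-base words of HOXB9 and 2.67% of those of HOXC9 occur in other genes.

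HOXC lies on chromosome 12, plus strand, from HOXC13 (53938765-53946544) to HOXC4 (54016931-54056030), and has no anterior genes. Its central genes HOXC5, HOXC6 and HOXC8 were lower in MCF10Ca1a than in both other lines, while HOXC4 was called lower against MCF10A only. HOXC8, a regulator of limb nerve and skeletal patterning, had 13.5, 11.6 and 11.5 CPM in MCF10A, 14.7, 13.9 and 13.7 in MCF10AT1, against 0.866, 0.981 and 0.931 in MCF10Ca1a. The MCF10Ca1a libraries stood far below the others, with a log2 change of -3.93 against MCF10AT1 (SE 0.11, adjusted p 1.32e-12) and -3.72 against MCF10A (SE 0.11, adjusted p 1.38e-12). HOXC8 shares no 31-base word with another gene. HOXC6 fell stepwise, from 9.51, 9.25 and 9.0 CPM to 4.09, 4.39 and 4.51 and to 1.82, 1.16 and 1.75. No 2 lines overlapped, and the log2 changes were -1.09 (SE 0.11, adjusted p 9.14e-07) and -1.45 (SE 0.14, adjusted p 2.29e-07), and -2.55 over the whole span (SE 0.13, adjusted p 2.90e-10).

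HOXC5 had 247, 171 and 224 counts in MCF10A, 70, 68 and 96 in MCF10AT1 and 0 in each MCF10Ca1a library. It fell by 1.42 on the log2 scale at the first step (SE 0.20, adjusted p 6.30e-05) and was at least 14.1-fold lower in MCF10Ca1a than in MCF10AT1 and at least 37.7-fold lower than in MCF10A. This row does not hold all reads of the locus. A second gene model on the same strand (ENSG00000273046, 54017110-54035361) covers the same exons and carries no symbol in the table. It had 66.8, 96.1 and 67.5 counts in MCF10A, 31.2, 32.4 and 0 in MCF10AT1, with 2, 7.87 and 1.63 in MCF10Ca1a. Of the 31-base words of HOXC5 59.3% occur in other genes' transcripts, that model first, so the 0 in MCF10Ca1a is a 0 of this row and not of every transcript there. HOXC4 was near the limit of detection, at 6, 11 and 14 counts, 3, 4 and 12, and 2, 0 and 0. Its call in MCF10Ca1a against MCF10A (8.18-fold lower, 95% counting interval 2.08 to 70.6, adjusted p 0.0133) was lost without MCF10Ca1a replicate 2 (adjusted p 0.0519) or without replicate 3 (adjusted p 0.0545). Without MCF10Ca1a replicate 1, which holds the only 2 counts of that line, the fitted log2 change moved from -2.89 to -6.19 (adjusted p 0.00742).

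The posterior HOXC genes split between HOXC9 and HOXC10. HOXC9 had 8.41, 8.91 and 8.02 CPM in MCF10A, 8.04, 8.56 and 7.69 in MCF10AT1, against 2.93, 2.41 and 2.96 in MCF10Ca1a. The first lines overlapped and MCF10Ca1a lay below both, with a log2 change of -1.55 against MCF10AT1 (SE 0.10, adjusted p 5.32e-09) and -1.61 against MCF10A (SE 0.10, adjusted p 2.74e-09). HOXC10 had 0.187, 0.155 and 0.201 CPM (12, 10 and 14 counts), then 0.510, 0.589 and 0.338, then 1.01, 0.654 and 0.705. No 2 lines overlapped, and its log2 change was 1.40 at the first step (SE 0.30, adjusted p 0.00113) and 2.11 over the whole span (SE 0.30, adjusted p 1.86e-05). With limma on unfiltered log2(TPM + 1) the first-step value was 0.20 (adjusted p 0.0675). HOXC11 had 4.83, 4.96 and 5.52 CPM in MCF10A, 5.02, 5.15 and 4.69 in MCF10AT1, with 11, 10.7 and 12.3 in MCF10Ca1a. It rose at the second step only, by 1.19 (SE 0.09, adjusted p 2.01e-08), and was 1.15 higher on the log2 scale in MCF10Ca1a than in MCF10A (SE 0.09, adjusted p 2.46e-08).

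HOXC13, a factor of hair and nail formation, had 8.0, 7.26 and 7.21 CPM in MCF10A, 15.1, 14.3 and 13.6 in MCF10AT1, against 19.4, 19.8 and 19.8 in MCF10Ca1a. It rose without overlap at both steps, with log2 changes of 0.94 (SE 0.06, adjusted p 2.54e-08) and 0.46 (SE 0.06, adjusted p 1.31e-05), and 1.39 over the whole span (SE 0.07, adjusted p 1.25e-10). At 8.30 ± 0.536 TPM (SD, n = 3) in MCF10AT1 and 13.8 ± 0.282 in MCF10Ca1a it was the highest HOXC gene by mean of both later lines, although in MCF10AT1 its level lay near those of HOXC9 (7.93 ± 0.851 TPM) and HOXC8 (7.90 ± 0.391 TPM). HOXC12 had 0 counts throughout.

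HOXA11 and HOXC11, paralogs of group 11, were both higher in MCF10Ca1a than in MCF10AT1. In HOXC11 the libraries of MCF10AT1 and MCF10A overlapped (log2 change -0.04, adjusted p 0.693), whereas HOXA11 was at 0 in MCF10AT1. Neither gene shares a 31-base word with another gene on the transcript strand, the only strand compared. Each overlaps an RNA of the opposite strand, HOXA11-AS or HOTAIR, which this check does not cover. Their homeoboxes differ at 32 of 180 positions, in capitals here.
HOXA11: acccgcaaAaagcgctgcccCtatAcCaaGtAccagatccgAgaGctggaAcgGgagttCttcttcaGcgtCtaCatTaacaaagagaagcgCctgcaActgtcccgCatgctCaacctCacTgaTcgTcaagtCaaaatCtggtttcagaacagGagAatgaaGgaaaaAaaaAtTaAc
HOXC11: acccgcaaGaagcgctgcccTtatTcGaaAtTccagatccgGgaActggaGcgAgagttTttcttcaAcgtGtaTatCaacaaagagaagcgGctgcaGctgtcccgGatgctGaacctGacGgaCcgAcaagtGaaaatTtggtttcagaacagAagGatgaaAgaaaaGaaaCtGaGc

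The genes on both sides of the HOXD cluster were expressed. MTX2, a mitochondrial import protein gene, had 52.7 to 54.0 CPM in MCF10A, 55.1 to 59.8 in MCF10AT1 and 53.8 to 59.2 in MCF10Ca1a. LNPK, an endoplasmic reticulum gene on the other side, had 57.2 to 62.7, 44.0 to 46.9 and 18.1 to 19.4 CPM, a log2 change of -1.68 in MCF10Ca1a against MCF10A (SE 0.06, adjusted p 3.52e-12). EVX2, the homeobox gene next to HOXD13, had 0 counts in all libraries, as had EVX1 beside HOXA13 and PRAC1 and PRAC2 beside HOXB13. Of the 7 genes listed around HOXC, all tested, 3 rose and 3 fell in MCF10Ca1a against MCF10A with a median log2 change of 0.23, where 39.0% of all genes rose and 41.9% fell. The 6 tested around HOXA gave 2 and 3 (median -0.55), the 5 around HOXB 3 and 0 (median 0.39) and the 4 around HOXD 0 and 3 (median -1.06), beside 80.9% of all genes called.

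The clusters also hold noncoding RNAs. Of 18 listed, 9 were tested. In MCF10AT1 against MCF10A 5 rose and 2 fell, and in MCF10Ca1a against MCF10AT1 3 rose and 3 fell, where 61.6% and 78.4% of all genes tested were called in either direction. HOXA11-AS, which overlaps HOXA11 on the opposite strand (27184507-27189298), had 14, 17 and 25 counts in MCF10A, 0 in each MCF10AT1 library and 171, 172 and 121 in MCF10Ca1a. It was at 0 in the same line as HOXA11, at least 96.0-fold higher in MCF10Ca1a than in MCF10AT1, and 3.97 higher on the log2 scale than in MCF10A (SE 0.24, adjusted p 1.30e-08), where HOXA11 changed by 0.92. The libraries were stranded, but whether the counting used the strand is not given in the sources used here, so reads of the shared stretch may not be told apart. HOXA10-AS had 2.15, 2.63 and 2.45 CPM in MCF10A, 2.31, 2.57 and 2.34 in MCF10AT1, with 0.922, 0.892 and 1.21 in MCF10Ca1a, a fall in the line where HOXA10 was lowest. HOXA-AS2 fell stepwise, from 2.78, 3.32 and 3.08 CPM to 1.86, 2.26 and 2.26 and to 1.34, 1.52 and 1.27.

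HOTAIR, the antisense RNA of the HOXC cluster that is known from metastatic breast cancer, had 0.951, 0.989 and 0.630 CPM in MCF10A, 1.21, 1.16 and 1.24 in MCF10AT1, against 2.65, 2.70 and 1.81 in MCF10Ca1a. It rose at both steps, by 0.50 (SE 0.20, adjusted p 0.0494) and 0.98 (SE 0.20, adjusted p 4.14e-04), without overlap in CPM. In TPM the first 2 lines overlapped, at 0.725, 0.670 and 0.488 in MCF10A and 0.724, 0.980 and 0.761 in MCF10AT1. HOXC11, which HOTAIR overlaps on the opposite strand, rose at the second step only. HOXC13-AS rose by 0.47 at the first step (adjusted p 0.0113) and fell by 0.79 at the second (adjusted p 4.12e-04), while HOXC13 rose at both. HOXB-AS1 rose at both steps, by 0.93 (adjusted p 0.0145) and 0.70 (adjusted p 0.0335), on 11 to 32 counts. HOXC13-AS overlaps HOXC13, HOXB-AS1 overlaps HOXB2 and HOXB3, and HOXA10-AS overlaps HOXA10, each on the opposite strand. For these pairs and for HOTAIR and HOXC11, as for HOXA11-AS, reads of a shared stretch may not be told apart. HOTTIP, at the 5′ end of HOXA, reached 1 count.

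Within 2 genes, chosen after their values were seen, the share of a transcript differed between lines. HOXC6-202, the HOXC6 transcript with the upstream start (54015897), held 22.6, 27.4 and 23.0% of the gene's counts in MCF10A, 24.5, 24.1 and 26.5% in MCF10AT1, against 0, 4.36 and 3.32% in MCF10Ca1a. The MCF10Ca1a share rests on 39 to 65 counts. HOXA11-201 held 22.2, 0 and 12.8% of HOXA11 in MCF10A and 45.7, 60.2 and 66.7% in MCF10Ca1a, although both its transcripts start within a few bases of each other. HOXB3 and HOXC9 show how uncertain such shares are: HOXB3-212 held 0, 0 and 47.3% in the MCF10A libraries and HOXC9-201 12.9, 55.7 and 59.9%. No test of transcript shares was made.

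HOX proteins bind DNA with TALE homeodomain cofactors of the PBX, MEIS and PKNOX families, and all 9 listed genes were tested. In MCF10Ca1a against MCF10A, 3 rose and 6 fell (median log2 change -0.63, beside -0.05 over all genes), where 80.9% of all genes were called. MEIS3 had 0.405, 0.494 and 0.330 CPM, then 2.34, 2.01 and 2.19, then 1.31, 0.921 and 1.13. It was highest in MCF10AT1 without overlap, with a first-step log2 change of 2.41 (SE 0.19, adjusted p 9.36e-08). PKNOX2 had 1, 1 and 0 counts in MCF10A, 3, 5 and 4 in MCF10AT1, against 295, 295 and 315 in MCF10Ca1a. It passed the filter on low counts through MCF10Ca1a alone, so no fitted change is given. PBX4 rose in MCF10Ca1a against MCF10AT1, by 3.43 (SE 0.17, adjusted p 3.88e-10), while PBX2 and PBX3 fell by 0.73 and 0.88 on the log2 scale.

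**Figure D5:**
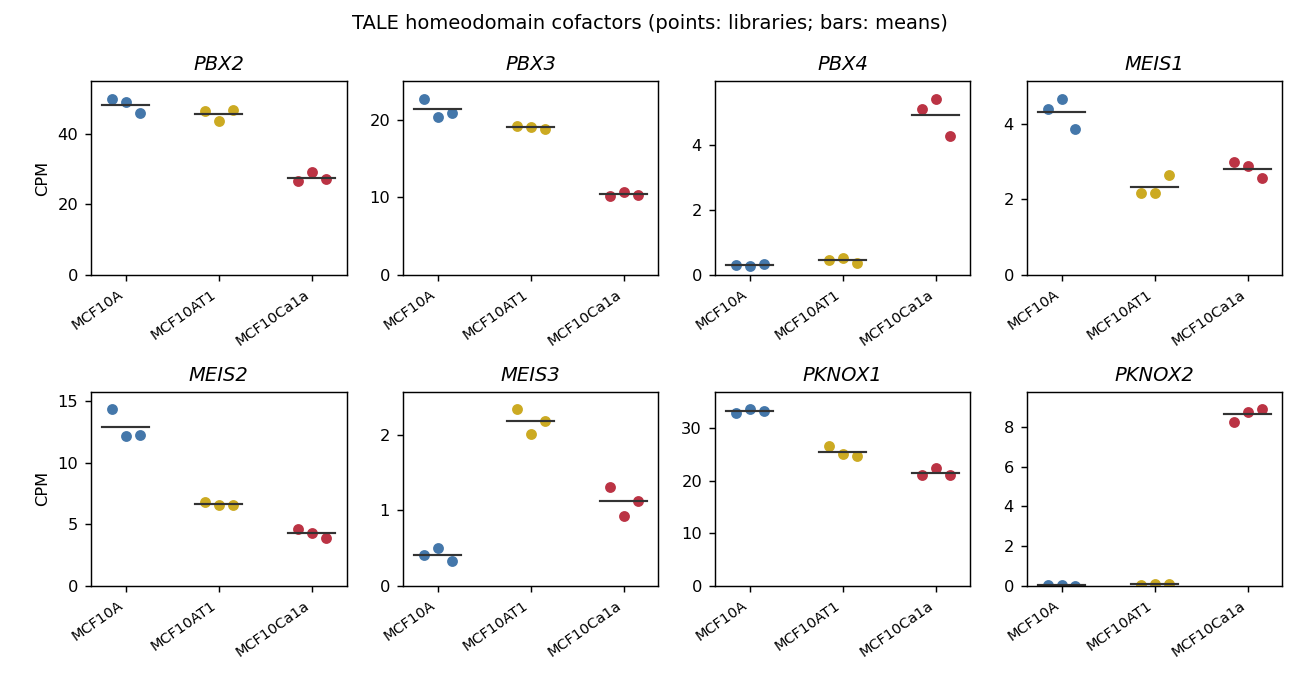
CPM per library (vertical, linear from 0; points are libraries, bars are means) in each line (horizontal) for 8 of the 9 TALE cofactor genes. MEIS3 is highest in MCF10AT1, and PBX4 and PKNOX2 are high in MCF10Ca1a alone.

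Genes that maintain or induce HOX expression were read from lists. The share of all genes called was 61.6% in MCF10AT1 against MCF10A and 78.4% in MCF10Ca1a against MCF10AT1 (38.0% higher and 40.3% lower), and the counts of these lists are read beside it. Of 14 Polycomb core genes, 2 rose and 6 fell in MCF10AT1 against MCF10A (median log2 change -0.06), and 8 rose and 6 fell in MCF10Ca1a against MCF10AT1 (median 0.22). In the latter CBX7, a chromobox reader of H3K27 methylation, rose by 2.09 (SE 0.13, adjusted p 2.16e-09) and EZH2, which writes that mark, fell by 1.09 on the log2 scale (SE 0.05, adjusted p 1.28e-10). KDM6B, which removes it, had 15.1 to 15.2 CPM in MCF10A, 18.1 to 20.6 in MCF10AT1 and 84.0 to 87.8 in MCF10Ca1a, and KDM6A was not called in any comparison. Of 8 genes of the trithorax MLL1/2 complexes, 5 rose and 3 fell in MCF10Ca1a against MCF10AT1 (median 0.33), with KMT2A up by 1.19 (SE 0.10, adjusted p 8.70e-08) and its partner MEN1 down at -1.57 (SE 0.07, adjusted p 1.08e-10). Retinoic acid is a known inducer of HOX genes. Of its 17 receptor and metabolism genes 12 were tested, and 8 rose and 2 fell in that comparison (median 0.58). DHRS3, a retinaldehyde reductase, had 73.9 to 75.1 CPM in MCF10A, 14.2 to 17.2 in MCF10AT1 and 83.3 to 91.2 in MCF10Ca1a. Of the 6 caudal and ParaHox genes only PDX1 was tested, and it was highest in MCF10AT1 (19, 37 and 30 counts). CDX1, CDX2 and CDX4 had 0 counts in every library.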

How the data were processed

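RNA of 9 libraries, 3 per line, was read from 6 deposited tables. Per the submitters' processing notes Salmon and hg38 were used; versions, the annotation and the strand setting are not given in the sources used here. The deposited gene values are estimated counts, and the deposited TPM values were used as given; deposited transcript estimated counts gave transcript shares. Estimated counts were rounded to whole numbers and filtered with filterByExpr (minimum count 10, minimum total 15). All 9 libraries were fitted together with edgeR 4.0.16 (R 4.3.3; TMM, glmQLFit, glmQLFTest, Benjamini-Hochberg). CPM use TMM-scaled totals, and SEs come from the change and its F statistic. SDs are over 3 libraries. No 2 libraries were identical, and replicate pairs differed by a chi-square per degree of freedom of 11.6 to 74.8 in MCF10A (the highest between replicates 1 and 3), 3.61 to 17.1 in MCF10AT1 and 2.51 to 4.41 in MCF10Ca1a, which has fewer counts.

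The members and lists were chosen with earlier results of these data known. Members with a mean of at least 10 counts in 1 line are given by library; log2 changes are given with SE and adjusted p at an absolute change of at least 1 or where a member differs from its neighbours (as a bound or counting interval where a line is at or under the floor), and lists by their counts, medians and leading genes. A 31-base word counts as shared where it occurs in a transcript of another GENCODE 29 gene. Words were compared on the transcript strand only, so overlap with an antisense transcript is not counted. Promoter windows are from RefSeq on GRCh38.p14. A few genes and sequences of the lists are not reported here, although counts over the members and lists include them. Counts within 0.01 of a whole number were taken as whole. The tests were checked on simulated data: in MCF10AT1 against MCF10A, over 17414 genes, edgeR recovered 91 of 112 genes changed 2-fold and made 16 false calls. Besides these only 88 genes were changed, by a log2 change of 2, all in MCF10AT1. In the real comparison 61.6% of all genes were called, so the check does not cover data in which most genes differ. Alternatives were other count tables, normalizations, filters, limma 3.58.1 on log2(TPM), DESeq2 1.42.0, thinning, a replicate block and libraries left out.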

Additional observations from a re-analysis of the deposited data

How the results depend on the processing

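Over 42 counts and summed levels, 607 of 609 values under the alternatives kept the direction and stayed within 1.5 times or 1 SD of the value reported. The other 2 came from limma on log2(TPM + 1) without a filter in MCF10AT1 against MCF10A, where 4 HOX genes were higher in place of 7 and 3 HOXC genes were called in place of 5. The cause was not tested. The summed levels were varied only by leaving out a library, which cannot move a mean of 3 by 1 SD. The counts of HOXD genes called were 0 under every setting. For these values the outcome was fixed in advance. Sums in CPM, which order the lines otherwise for HOXB, were not among the alternatives. Of 736 values for 37 changes of single members, 729 kept their call and none reversed, but sizes moved: 22 of the 37 changes were over 1.5 times smaller on log2(TPM + 1) and 11 on log2(TPM + 0.1), for example 1.78 in place of 4.39 for HOXA7 and 1.05 in place of 3.73 for HOXB9 in MCF10AT1 against MCF10A and -1.34 in place of -2.76 for HOXA2 in MCF10Ca1a against MCF10A on the former. HOXB4 in MCF10Ca1a against MCF10AT1, where both lines were under the floor, lost its call when libraries were thinned to the smallest (log2 change 3.17, adjusted p 0.0537) and on the TPM scale (0.03 to 0.29). HOXC4 and HOXC10 are given with their results. Without each library in turn, 6 to 7 HOX genes were higher and 11 to 12 lower in MCF10AT1 against MCF10A, 7 to 9 and 8 to 9 in MCF10Ca1a against MCF10AT1, and 8 and 12 to 13 in MCF10Ca1a against MCF10A. Replicate numbers did not pair the libraries: deviations of same-numbered libraries correlated from -0.06 to 0.05. With the replicate number as a block the counts were 7 higher and 11 lower, 9 and 8, and 8 and 13, as without it. Depth limits the values that rest on 40 counts or fewer in a library: HOXC4, HOXA6 and HOXC10 in every line, HOXA7 and HOXB9 in MCF10A, HOXA2, HOXC6 and HOXC8 in MCF10Ca1a, and lines at or near 0.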
